A study of Mus musculus with 3 samples.

Results

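The genome-wide difference between spheroids of 4T1 cells cultured alone and spheroids cultured with tumor primed splenocytes was read from 2 libraries, 1 per condition, of the 3 in the series. Genes were taken where the summed FPKM (fragments scaled by transcript length and library depth) of the RefSeq transcripts of a gene symbol was at least 1 in either library. This kept 10200 of 24402 gene symbols, which are called measured or tested. 4T1 is a Balb/c mouse mammary carcinoma line, a model of triple negative breast cancer, and its CSCsp are spheroids grown for 7 days without attachment and in serum-free medium to enrich stem-like cells.

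The N-labelled library is CSCsp with no co-culture. The P-labelled library is CSCsp co-cultured for 2 days with splenocytes primed by tumor antigen in vivo, from Balb/c females injected with 4T1 cells at an age of 8 weeks and housed for 28 days. The third library, labelled R, is a co-culture with the same kind of splenocytes after reinforced activation by anti-CD3/CD28 beads and IL2, and its level is given only beside genes of the comparison. By the study's methods the spheroids were separated from single splenocytes on a 40 μm strainer and washed, and the RNA of several independent experiments was multiplexed, in like amounts, for sequencing. Whether the 1 library of each condition pools them is not stated there. With 1 library on each side there is no replicate check, no SD and no p-value. The RNA is that of whole strained spheroids, so that fewer cells of a type and less RNA per cell cannot be told apart.

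Which of these 2 libraries is the co-culture is in doubt. The name under which the N-labelled library was deposited refers to the saline used for splenocytes without reinforcement, and that of the P-labelled library refers to no treatment. For most arginine genes, the values the study lists for the cultures alone lie nearer to the P-labelled library than to the N-labelled library. The libraries are therefore named by their labels throughout, every direction is given as the labels have it, and with the labels exchanged each "higher" becomes "lower" and each log2 ratio changes its sign.

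As labelled, and by the sum over RefSeq transcripts, 279 genes were at least 2-fold higher in the P-labelled library (2.74% of the genes tested) and 361 were at least 2-fold lower (3.54%). With the labels exchanged these counts are 361 higher and 279 lower. Most of these differences did not carry over to the whole locus. StringTie, the program that made the values, splits the reads of a locus among RefSeq transcripts and transcripts it assembles from the reads, and only the former carry a gene symbol. Ppia, which encodes cyclophilin A, had an FPKM of 0.97 in the N-labelled library and 612.02 in the P-labelled library on its RefSeq transcripts. Over all transcripts of the locus it had 574.4 and 612.6. Rps12, a ribosomal protein gene that shares its locus with other symbols, was at 415.6 and listed at 0 on RefSeq transcripts, and at 515.4 and 329.5 over the locus. Socs3, a feedback inhibitor of cytokine signalling, even changed direction, from 3.49 and 11.5 on RefSeq transcripts to 34.9 and 28.7 over the locus.

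The genes furthest apart by the RefSeq sum were mostly of this kind. Of the 12 highest log2 ratios with an FPKM of at least 5 (Ppia, Gapdh, Mpst, Kif5b, Hdac1, Immp1l, Rbp2, Zdhhc17, Cir1, Ash1l, Mllt6 and Bloc1s3), 0 remained 2-fold apart over the locus. Of the 12 lowest (among them Rps12, Rpl17, Wbp11, Psmc1, Dhcr7, Dmap1, Ptprj, Lyz2, Il24, Srp54c and Mmp12), 3 did, namely Lyz2, Il24 and Mmp12. Over all genes, 252 of the 279 higher and 235 of the 361 lower ones lay within 2-fold at the locus. The description that follows is therefore restricted to genes at least 2-fold apart in the same direction by both sums, a restriction added after the data were seen. It holds 26 genes higher in the P-labelled library (0.255% of the genes tested) and 126 lower (1.24%), or the reverse with the labels exchanged. A gene that passed the filter of 1 FPKM in N alone had to lie lower in P, and this holds for 372 of all genes tested and for 77 of the 126. Likewise, a gene that passed in P alone had to lie higher in P, which holds for 375 of all genes tested and for most of the 26. Among the genes apart by both sums, 1 of the 26 and 6 of the 126 share their locus with another symbol and are less certain. Over the locus, 95.3% of the 10200 genes lay within 1.5-fold, and the median log2 ratio of all genes was 0.026.

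**Figure D1:**
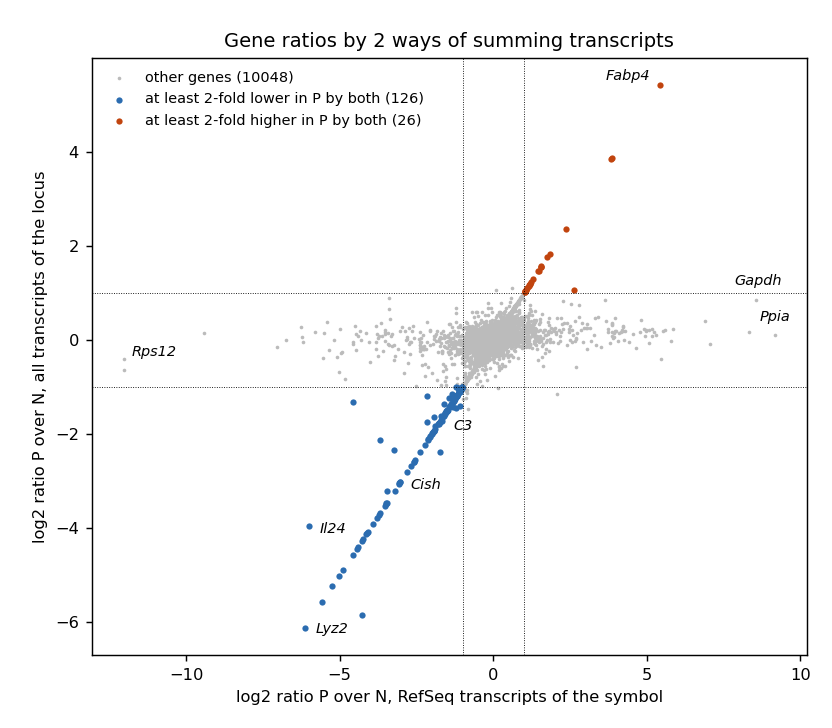
Log2 ratio of the P-labelled library over the N-labelled library for 10200 genes, from the RefSeq transcripts of the symbol (horizontal) and from all transcripts of the locus (vertical), with dotted lines at 2-fold. Blue points are the 126 genes lower and red points the 26 genes higher in the P-labelled library by both sums. Ppia and Rps12 lie far out on the horizontal axis, but at 0.093 and -0.65 on the vertical one. Lyz2 and Fabp4 lie near the diagonal.

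Of the 126 genes lower in P by both sums, 24 were on lists of inflammatory and interferon genes and 14 on leukocyte marker lists. Histone genes made up 14, which gives 50 on any of these and 76 on none. The 76 still include genes known from leukocytes that the lists lack, such as Spi1, Ncf1, Ncf4, Clec4n and Mmp12. The 14 are therefore not a full count of the lower leukocyte genes. The higher genes included some known from adipocytes. Epithelial cells meet cytokines of leukocytes with a shared set of responses. NF-kB, the transcription factor downstream of tumor necrosis factor and interleukin-1 receptors, drives chemokines and growth factors that recruit neutrophils and monocytes. Interferons act through STAT factors on antigen presentation genes and on the chemokines that recruit lymphocytes, and SOCS family proteins, made in response to STAT activity, close that loop.

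Chemokine genes were lower in the P-labelled library by both sums more often than all genes tested, but many passed the filter in N alone. Of 7 measured C-X-C motif genes 5 were lower by both sums and 7 lay below 0 over the locus, and of 9 measured C-C motif genes 7 were lower, against 1.24% of all genes. Of the 5 and 7 lower genes, 1 and 6 passed the filter in N alone. The promoters of 4 of the 5 lower C-X-C genes are shown, picked because their upstream sequence carries a shared motif. Both the shared direction and the shared motif of these 4 therefore follow from that choice. Cxcl11, the other lower C-X-C gene, is not among the lower genes found to hold the motif and is not shown. Cxcl1, Cxcl2 and Cxcl3 encode ligands of the neutrophil receptor CXCR2 and lie beside each other, and Cxcl10 encodes an interferon-inducible ligand of the lymphocyte receptor CXCR3. The sequences are the 250 bases before the annotated start on the gene's strand, from RefSeq for GRCm38.p6, with capitals marking matches to GGGNNNTTCC or, on the other strand, GGAANNNCCC, a core common to many NF-kB sites. They lie at chr5:90890995-90891244 (plus strand) for Cxcl1, chr5:90903649-90903898 (plus strand) for Cxcl2, chr5:90785851-90786100 (plus strand) for Cxcl3 and chr5:92348890-92349139 (minus strand) for Cxcl10.
Cxcl1: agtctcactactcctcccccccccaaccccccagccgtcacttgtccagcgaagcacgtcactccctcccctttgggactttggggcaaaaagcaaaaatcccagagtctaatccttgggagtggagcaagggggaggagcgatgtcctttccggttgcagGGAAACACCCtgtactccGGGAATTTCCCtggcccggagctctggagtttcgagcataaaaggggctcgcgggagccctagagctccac
Cxcl2: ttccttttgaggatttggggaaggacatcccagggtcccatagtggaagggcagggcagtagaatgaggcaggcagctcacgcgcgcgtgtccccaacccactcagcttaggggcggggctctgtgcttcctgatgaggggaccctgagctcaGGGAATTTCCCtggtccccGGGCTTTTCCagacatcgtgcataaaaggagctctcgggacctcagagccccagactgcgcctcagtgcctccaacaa
Cxcl3: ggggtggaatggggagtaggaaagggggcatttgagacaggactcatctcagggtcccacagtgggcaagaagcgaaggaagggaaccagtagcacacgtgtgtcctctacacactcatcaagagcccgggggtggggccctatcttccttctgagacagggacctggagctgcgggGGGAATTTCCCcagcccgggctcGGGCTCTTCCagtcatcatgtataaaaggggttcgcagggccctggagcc
Cxcl10: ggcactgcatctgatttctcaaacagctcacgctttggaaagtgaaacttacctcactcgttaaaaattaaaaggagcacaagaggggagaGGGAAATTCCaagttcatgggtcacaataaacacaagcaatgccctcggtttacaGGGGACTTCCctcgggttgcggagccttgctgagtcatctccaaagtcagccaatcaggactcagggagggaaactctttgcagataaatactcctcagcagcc
Counted on both strands, with an overlapping pair counted as 2, there were 3 matches each for Cxcl1, Cxcl2 and Cxcl3 and 2 for Cxcl10. In Cxcl1, Cxcl2 and Cxcl3 an 11-base stretch matches on both strands. The match nearest to the start began 70 bases before it in Cxcl1, 78 in Cxcl2, 50 in Cxcl3 and 104 in Cxcl10. The motif was chosen after the values were seen, and it stood in the same window of 5.31% of all 27025 genes with a promoter and 6.34% of the 7711 tested genes among them. Among the 66 lower genes with such a window, 7 held it (10.6%), and of the 12 higher genes 3 did (25%). The shorter core TTCNNNGAA, a letter pattern of STAT sites, stood in the window of 5 of the 66 lower genes (7.58%), in 0 of the 12 higher ones and in 6.98% of the tested genes. A match of letters is a description of the window and not a binding site.

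Cxcl1 had an FPKM of 127.4 in the N-labelled library, 41.4 in the P-labelled library and 150.6 in the R-labelled library. As labelled, its level in P was 3.08-fold below that in N, with an exact 95% Clopper-Pearson interval of 2.82 to 3.35. All intervals come from estimated fragments and cover counting error only. Cxcl2 was at 3.47, 1.11 and 2.35 in the N-, P- and R-labelled libraries, and Cxcl3 at 4.56, 0.69 and 1.14. The promoter windows with 3 matches thus belonged to genes at very different levels, with Cxcl1 the highest of them. Cxcl5, another CXCR2 ligand, was at 1.04 and 0.098 by the RefSeq sum but at a log2 ratio of -0.99 over the locus. Csf3, which encodes the granulocyte growth factor G-CSF, was at 52.3 in the N-labelled library, 17.2 in the P-labelled library and 204.8 in the R-labelled library, or 3.04-fold lower in P than in N (2.72 to 3.40). Csf2 and Csf1, which encode the growth factors GM-CSF and M-CSF, were at 5.02 and 2.72 and at 52.7 and 47.3 in N and P. Of the 7 measured neutrophil chemokines and growth factors 4 were lower by both sums and none was higher, with a median log2 ratio of -1.60 on RefSeq transcripts and -1.37 over the locus.

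Chemokines for monocytes and lymphocytes stood at widely different levels. Ccl2, the main ligand of the monocyte receptor CCR2, was at 11.5, 3.26 and 39.7 in the N-, P- and R-labelled libraries, and 3.51-fold lower in P than in N (2.52 to 4.96). Ccl7, its neighbour on chromosome 11, was at 1.33, 0.27 and 4.65. Cxcl10 was at 21.7, 6.63 and 89.6, or 3.28-fold lower in P than in N (2.69 to 4.03). Cxcl11, also a CXCR3 ligand, was at 2.64, 1.02 and 38.1. The R-labelled library was the highest of the 3 for each of these 4 genes. Ccl6, a chemokine of myeloid cells, was at 6.38 in N and 0.070 in P, Ccl22, made by dendritic cells and macrophages, at 2.83 and 0.034, and Ccl3, Ccl4 and Ccl9 at 1.22, 1.65 and 1.29 in N and listed at 0 in P. Cx3cl1, Ccl5 and Cxcl16 lay within 2-fold. Of the 10 measured members 7 were lower by both sums. The filter fixed the direction of 6 of these, which reached an FPKM of 1 in N alone, and Ccl2 was the only lower member with an FPKM of 1 or more in both libraries. The median log2 ratio of -2.83, or -2.40 with genes listed at 0 set to a floor of 3 fragments, describes the members that passed.

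**Figure D2:**
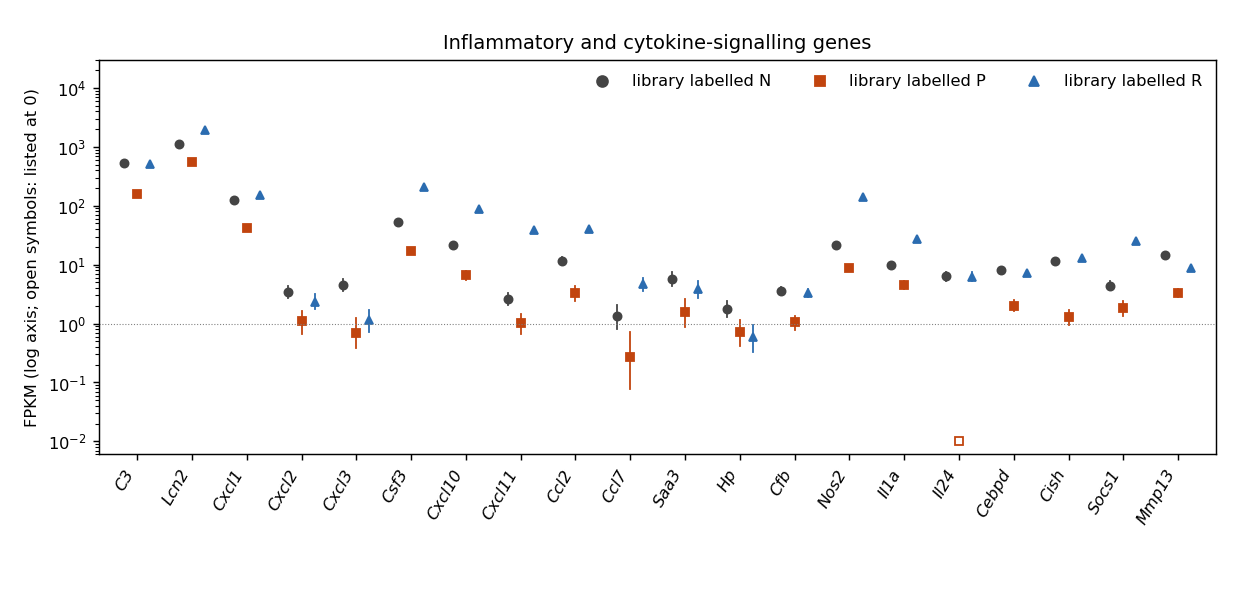
FPKM (vertical, log axis) for 20 inflammatory and cytokine-signalling genes (horizontal) in the 3 libraries, named by their labels. Bars, exact 95% Poisson intervals from fragment numbers, reflect counting error alone. All genes drawn were picked from those lower in P than in N, so their shared direction follows from that choice. Il24 is listed at 0 in P. Genes of these kinds that ran the other way, such as Il33 and Socs2, are left out.

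Secreted defence proteins were among the most abundant transcripts that were lower in the P-labelled library. Complement C3, the central protein of the complement cascade, had an FPKM of 527.1 in the N-labelled library, 155.2 in the P-labelled library and 515.2 in the R-labelled library. Its level in P was 3.40-fold below that in N (3.33 to 3.46) from about 48475 and 14270 fragments, and shares its locus with another symbol. Lcn2, which encodes lipocalin-2, an iron-siderophore binding protein of neutrophil granules and inflamed epithelium, was at 1124, 542.2 and 1894. Its 2.07-fold difference between N and P (2.02 to 2.13) was small but rested on many fragments. Saa3, an acute phase apolipoprotein, was at 5.67, 1.59 and 3.87, and Hp, which encodes haptoglobin, at 1.79, 0.72 and 0.59. Cfb, complement factor B of the alternative pathway, was at 3.58, 1.05 and 3.31 and shares its locus. Of 8 measured acute phase and epithelial defence genes 5 were lower by both sums, and 1 of these, Hp, reached an FPKM of 1 in N alone. Of 6 measured complement genes 2 were, and the median log2 ratio moved from -1.30 on RefSeq transcripts to -0.85 over the locus.

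The feedback genes of cytokine receptors did not move as 1 group. Cish, which encodes a SOCS family protein induced through STAT5, was at 11.3 in the N-labelled library, 1.28 in the P-labelled library and 13.1 in the R-labelled library. Its level in P was 8.88-fold below that in N (6.66 to 12.3), while N and R lay close together. Socs1, which inhibits JAK kinases, was at 4.36, 1.84 and 25.7, and 2.37-fold lower in P than in N (1.73 to 3.37). Socs2 was at 1.04, 1.31 and 0.93. Of 6 measured SOCS family genes 2 were lower by both sums and 4 lay below 0 over the locus. Cish and Socs1 are the members that stood apart, and Cish was named after its value was seen. Cebpd, a transcription factor of the acute phase response, was at 8.04, 2.02 and 7.31, or 3.99-fold lower in P than in N (3.10 to 5.11), while its relative Cebpb was at 442.7, 300.8 and 379.5.

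Interferon-inducible genes were lower in the P-labelled library in nearly every case, but mostly by less than 2-fold. Of 23 measured interferon-gamma response genes 22 lay below 0 over the locus, with a median log2 ratio of -0.74 on RefSeq transcripts and -0.67 over the locus. Only 4 were lower by both sums, namely Cxcl10, Cxcl11, Nos2 and Socs1. Nos2, the inducible nitric oxide synthase that consumes arginine, was at 21.2, 8.93 and 138.2. Irf1, a transcription factor at the head of the response, was at 77.8, 51.1 and 261.3. Of 23 measured type I interferon genes all 23 lay below 0, with a median of -0.49 on RefSeq transcripts and -0.44 over the locus, and 1 was lower by both sums: Zbp1, a sensor of Z-form nucleic acids, was at 12.9, 5.77 and 88.2. Isg15, a ubiquitin-like modifier, was at 96.2, 63.6 and 225.7. MHC class I and peptide loading genes had 19 of 20 below 0, a median of -0.24 over the locus and none apart by both sums. Over the same genes, 44.6% of all those tested lay below 0.

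NF-kB feedback and target genes lay mostly below 0. Of 17 measured members 16 lay below 0 over the locus, none was apart by both sums, and the median log2 ratio was -0.46 on RefSeq transcripts and -0.40 over the locus. Nfkbia, which encodes the inhibitor that retains NF-kB in the cytoplasm, was at 135.1 in the N-labelled library, 86.1 in the P-labelled library and 93.4 in the R-labelled library. Icam1, an adhesion molecule for leukocytes, was at 6.73, 3.37 and 16.8. Among 9 measured cytokines only Il1a, which encodes interleukin-1 alpha, was lower by both sums, at 9.88, 4.51 and 27.4. Il24, a cytokine of the interleukin-10 family outside that list, was at 6.32 in N, listed at 0 in P and at 6.26 in R on RefSeq transcripts, and at 9.80, 0.53 and 10.7 over the locus. Il33, an epithelial alarmin, ran the other way, at 7.63 in N and 11.8 in P.

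Of 14 measured MMP and TIMP genes 12 lay below 0 over the locus and 3 were lower by both sums, against 1.24% of all genes. Of these 3, Mmp12 and Mmp8 reached an FPKM of 1 in N alone, so that the filter fixed their direction, and Mmp13 reached it in both. Mmp13, collagenase 3, was at 14.5, 3.37 and 8.71 in the N-, P- and R-labelled libraries, or 4.31-fold lower in P than in N (3.63 to 5.15). Mmp12, the elastase of macrophages, was at 5.43 from about 351 fragments in N and 0.016 from 1 fragment in P, and Mmp8, the collagenase of neutrophils, at 1.42 in N and listed at 0 in P. Mmp3, stromelysin, was at 103.4 and 64.2, and Mmp9 at 59.4 and 44.6. Of 10 measured genes of arginine uptake and catabolism 2 were lower by both sums. These were Nos2 and Azin2, an antizyme inhibitor of polyamine metabolism, at 87.3, 34.9 and 82.2.

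Fewer leukocyte genes were detected in the P-labelled library than in the other two, while those with an FPKM of 1 or more in it lay within 2-fold of N by at least 1 of the sums, apart from Lcn2. Of 141 genes on 8 leukocyte marker lists 138 are in the files. In the N-labelled library 28 of them had an FPKM of 1 or more, against 15 in the P-labelled library and 32 in the R-labelled library, and 34, 80 and 29 of them were listed at 0. Of the 126 lower genes 14 are on these lists and of the 26 higher ones none is. Of these 14, 13 reached an FPKM of 1 in N alone, so that the filter fixed their direction. The other one is Lcn2. The summed FPKM over the lists was 1983 in N, 1269 in P and 3167 in R, and was carried mostly by Lcn2, Anxa1 and Padi4, which also stood at 542.2, 280.2 and 106.9 in P. The part of leukocyte RNA in the lower chemokine and interferon genes was not tested.

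Several neutrophil granule genes were present in the N-labelled library and near or at 0 in the P-labelled library. Of the 36 genes on that list 12 were measured, 8 of them lower by both sums, and 7 of these 8 reached an FPKM of 1 in N alone. The members that passed had a median log2 ratio of -3.61, or -3.21 with genes listed at 0 set to the floor of 3 fragments. That median depends on the low genes, and was -1.30 with a pseudocount of 1 and -0.41 with a filter of 5 FPKM. Lyz2, a lysozyme of macrophages and neutrophils, was at 28.9, 0.31 and 6.51 in the N-, P- and R-labelled libraries, and 92.5-fold lower in P than in N (41.6 to 249.4). S100a8, a subunit of the neutrophil protein calprotectin, was at 8.20, 0.55 and 5.58. On RefSeq transcripts its partner S100a9 was at 1.84 in N and listed at 0 in P and R. Over the locus S100a9 was at 5.74, 0 and 2.03. Ngp, a granule protein, was at 2.87 in N and 0.86 in R, Chil3 at 1.84 and 2.09, and both were listed at 0 in P. Elane, neutrophil elastase, was at 1.64, 0.049 and 1.14. The 4 measured members that differed by less than 2-fold (Mmp9, Ltf, Padi4 and Anxa1) stood at 12.3 or more in the P-labelled library.

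Markers that define leukocytes as a whole were few and mostly low. Ptprc, which encodes CD45, lay below an FPKM of 1 in each library, at 0.20 from about 20 fragments in N, listed at 0 in P and at 0.31 from 33 fragments in R. Of 16 pan-leukocyte markers 7 were measured and 3 were lower by both sums: Laptm5, a lysosomal protein of blood cells, at 1.94, 0.084 and 1.35, Coro1a, an actin regulator, at 1.08, 0.17 and 1.59, and Cd52, listed at 0 in P. Their median was only -0.56, since Lcp1, Itgb2 and Arhgdib had similar levels in N and P (12.4 and 12.1, 26.3 and 35.9, 9.77 and 7.43). Of 4 measured monocyte and macrophage genes 1 was lower by both sums, while Cd68 was at 21.4, 18.04 and 19.2 and Cd14, the endotoxin co-receptor, at 18.4, 12.5 and 17.1. Ctss, cathepsin S of antigen presenting cells, was at 3.59, 0.073 and 2.98, and Spi1, the myeloid transcription factor PU.1, at 1.21, 0.042 and 1.29. The NADPH oxidase subunit gene Ncf1 was at 1.67, 0.12 and 1.21. The MHC class II genes H2-Aa and H2-Eb1 were at 1.03 and 1.23 in N, listed at 0 and at 0.088 in P, and at 50.9 and 47.8 in R.

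Listed lymphocyte markers were sparse in the symbol-bearing transcripts. Of the 20 T cell genes and 11 NK cell genes listed, 0 reached an FPKM of 1 in N or P, although the co-culture partners were splenocytes. Tigit and Il2rg, receptor genes of T and NK cells outside these lists, were lower in P by both sums. Tigit was at 6.50, 1.39 and 6.90 in the N-, P- and R-labelled libraries, and at 13.2, 3.88 and 17.7 over the locus. Il2rg was at 1.02, 0.44 and 0.89, reaching an FPKM of 1 in N alone. Both were picked after their values were seen. Cd3e and Cd3d, subunits of the T cell receptor complex, were listed at 0 in N and P and stood at 0.077 and 0.039 in R, from 2 fragments and 1. Of 13 B cell genes 2 were measured. Mzb1, a chaperone of B and plasma cells, was at 1.09, 0.20 and 0.86, and Xbp1, which epithelial cells also express, at 17.9, 18.2 and 21.8. Ighm and Igkc, the genes of the immunoglobulin mu and kappa constant regions, carry no symbol in these files. Transcripts that StringTie assembled over them were at 7.12 and 7.14 in N, at 0.032 and listed at 0 in P, and at 14.2 and 15.4 in R.

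**Figure D3:**
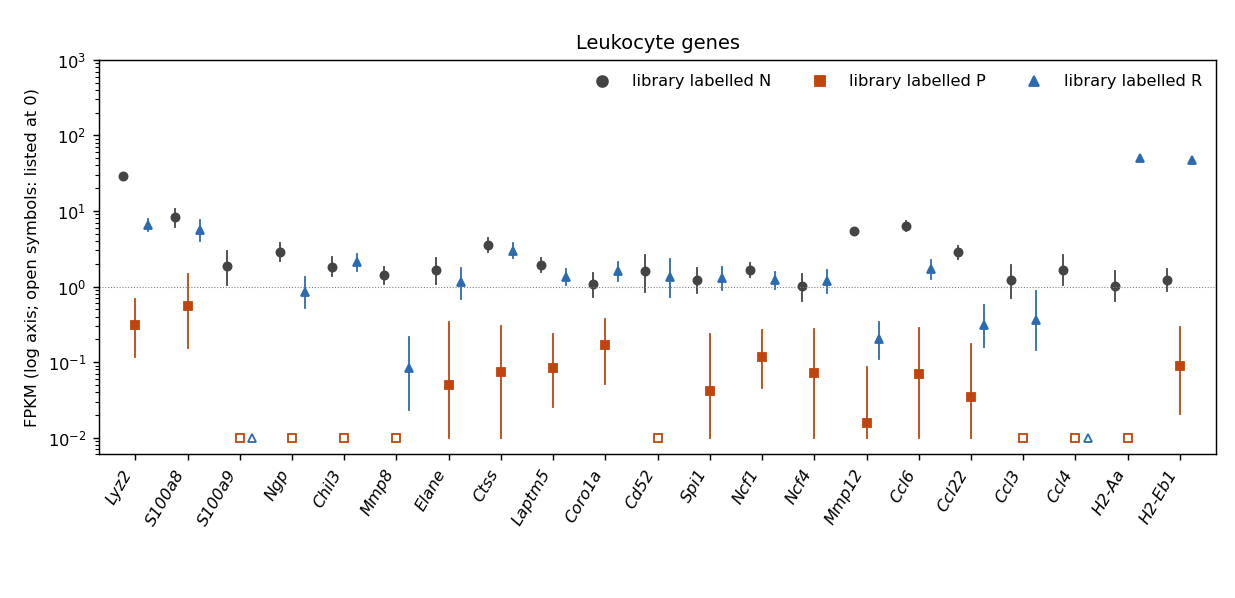
FPKM (vertical, log axis) of 21 genes of leukocytes (horizontal) in the 3 libraries, named by their labels; open symbols stand for genes listed at 0 and are drawn at the foot of the axis. Bars are exact 95% Poisson intervals on fragments, cut at the foot, and cover counting error only. The genes shown were picked among those with an FPKM of 1 or more in N and less in P, so that order is given by the choice; leukocyte genes that stood at similar levels in N and P, such as Itgb2, Lcp1 and Cd68, are not shown.

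Epithelial markers leaned the same way but by less than 2-fold. All 18 were measured and none was apart by both sums, with a median log2 ratio of -0.16 on RefSeq transcripts and -0.17 over the locus. Of the 18, 15 lay below 0 over the locus, against 44.6% of all genes. Epcam, an epithelial adhesion molecule, was at 282.03, 237.1 and 242.6 in the N-, P- and R-labelled libraries, and Krt8, a simple epithelial keratin, at 650.9, 553.7 and 466.7. Of 12 measured mesenchymal markers and EMT factors Twist2 alone was higher by both sums, at 0.96, 2.07 and 0.90. It reached an FPKM of 1 in P and not in N, so that the filter fixed its direction. Vim, which encodes vimentin, was at 1162 and 1449 in N and P. Of 9 endothelial genes 0 were measured. The 11 measured breast cancer stem cell markers had a median of -0.11 and none was apart, with Cd44 at 72.0, 39.5 and 46.6 on RefSeq transcripts and a log2 ratio of -0.32 over the locus between P and N.

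Replication-dependent histone genes were lower in the P-labelled library while genes of DNA replication and mitosis were slightly higher. These histones package new DNA in S phase, and most of their messages end in a stem-loop in place of a poly(A) tail. Of 36 measured histone genes 14 were lower by both sums, against 1.24% of all genes, and 1 was higher (Hist2h4, at 0.76 and 1.64). Over the locus 31 lay below 0, with a median log2 ratio of -0.84. Of the 36, 14 reached an FPKM of 1 in N alone, among them 9 of the 14 lower genes, and Hist2h4 in P and not in N. The filter fixed the direction of these. Hist1h1c, a linker histone, was the highest, at 186.7 in the N-labelled library, 82.2 in the P-labelled library and 18.5 in the R-labelled library, or 2.27-fold lower in P than in N (2.11 to 2.44). Hist1h2bg was at 25.2, 6.66 and 1.65, and Hist1h1d at 4.67, 0.81 and 0.46. In contrast to the inflammatory genes, the R-labelled library was lower than the P-labelled library for 32 of the 36. Hist1h2ap and Hist1h2ao, which share loci, were at 92.6 and 103.2 and at 21.0 and 23.2 in N and P. Members of this family are near copies of each other, so their separate values are less certain than their sum of 494.3, 316.5 and 174.7.

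**Figure D4:**
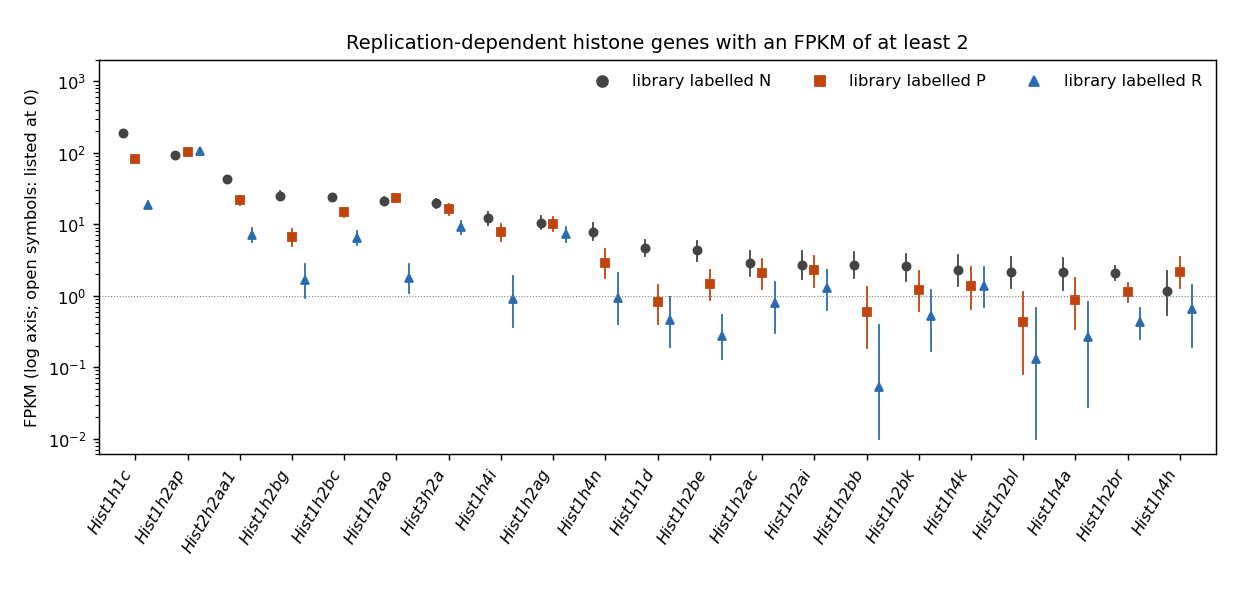
FPKM (vertical, log axis) of 21 replication-dependent histone genes that reached an FPKM of 2 in N or P (horizontal), in the 3 libraries, named by their labels. Bars are exact 95% Poisson intervals on fragments and cover counting error only; Hist1h1c stands at 186.7, 82.2 and 18.5 in N, P and R, and Hist1h2ap between 92.6 and 106.2.

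Cell cycle genes did not share the lowering of the histones. Of 28 measured genes of DNA replication and mitosis 25 lay above 0 over the locus, none was 2-fold apart, and the median log2 ratio was 0.22 against 0.026 over all genes. Mki67, a marker of dividing cells, was at 12.7, 17.3 and 10.3 in the N-, P- and R-labelled libraries, a ratio of 1.37 for P over N (1.30 to 1.44). Mcm5, a subunit of the replicative helicase, was at 15.6 and 19.1 in N and P.

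The 26 genes higher in the P-labelled library included 9 predicted genes or small RNAs, and only 3 of the 26 reached an FPKM of 5. Most of the 26 reached an FPKM of 1 in P and not in N, so that the filter fixed their direction. Ly6d, a surface protein of epithelial and lymphoid cells, was at 14.0, 29.3 and 32.5 in the N-, P- and R-labelled libraries, or 2.08-fold higher in P than in N (1.73 to 2.51). Hey1, a transcriptional repressor downstream of Notch, was at 1.59, 4.84 and 0.82, or 3.03-fold higher (2.27 to 4.10). Cdc37, the kinase co-chaperone of Hsp90, was at 13.2, 82.2 and 70.2 on RefSeq transcripts and at a log2 ratio of 1.06 over the locus, which it shares. Tbx2, a T-box transcription factor, was at 0.45, 1.18 and 0.34. For Ly6d and Cdc37 the P- and R-labelled libraries lay close together, while Hey1 and Tbx2 were highest in the P-labelled library.

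A separate set of the higher genes is known from brown and white fat. Fabp4, the fatty acid binding protein of adipocytes, was listed at 0 in the N-labelled library and stood at 4.17 from about 48 fragments in the P-labelled library and 3.08 from 38 in the R-labelled library. Ucp1, the uncoupling protein of brown fat mitochondria, was at 0.36, 1.56 and 1.92, a ratio of 4.28 for P over N (2.13 to 8.96). Gpd1, which links glycolysis to triglyceride synthesis, was at 0.20, 1.42 and 1.34, or 7.19-fold higher in P than in N (3.65 to 15.4). Cox8b, a cytochrome oxidase subunit of muscle and brown fat, was listed at 0, at 1.35 from about 9 fragments and at 0.91. Each of these 4 genes reached an FPKM of 1 in P and not in N, so that the filter fixed their order between N and P. The P- and R-labelled libraries lay close to each other for all 4. Of the 14 lower genes on the leukocyte lists, by contrast, 13 were higher in R than in P on RefSeq transcripts. S100a9 was listed at 0 in both on RefSeq transcripts, but was at 0 in P and 2.03 in R over the locus. Over all 126 lower genes, R lay nearer to N for 82 and nearer to P for 44. Over all 26 higher genes, R lay nearer to N for 15 and nearer to P for 11, so the 4 fat genes do not stand for them.

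Several single genes with wide differences belonged to no list, and were picked after their values were seen. Rnf19b, a ubiquitin ligase, was at 195.1, 91.6 and 229.0 in the N-, P- and R-labelled libraries. Mt2, a metallothionein that binds zinc, was at 197.4, 94.2 and 160.4, while Mt1 beside it was at 283.4, 223.8 and 182.8. P2ry2 and P2ry6, receptors for extracellular nucleotides that lie together on chromosome 7, were at 9.53, 3.01 and 6.09 and at 7.55, 0.49 and 9.46. Over the locus P2ry6 was at 12.4, 2.76 and 13.0, a smaller difference of 4.49-fold between N and P. Sfrp1, a secreted inhibitor of Wnt ligands, was at 9.74, 2.74 and 17.5, or 3.55-fold lower in P than in N (3.05 to 4.16). Chil1, a chitinase-like secreted protein, was at 10.2, 2.61 and 11.9. Prl2c2 and Prl2c3, near-identical proliferin genes whose reads may be exchanged, were at 2.98 and 5.995 in N and 0.27 and 0.46 in P.

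Housekeeping and metabolic genes differed little in size, though ribosomal protein genes all lay on 1 side. The median log2 ratio over the locus was -0.095 for 26 cytosolic ribosomal protein genes, -0.069 for 24 subunits of oxidative phosphorylation, 0.019 for 18 glycolysis genes and 0.061 for 20 hypoxia targets. All 26 ribosomal protein genes and 19 of the 24 oxidative phosphorylation genes lay below 0, against 44.6% of all genes. Slc16a3, a lactate exporter, was the only gene of these 4 lists apart by both sums, at 1.05, 0.090 and 0.48 in the N-, P- and R-labelled libraries. The lists whose medians lay below -1 over the locus were the neutrophil list, both chemokine lists, the MHC class II list and the acute phase list, among those with at least 4 measured genes. Each of these medians is over members that passed the filter, some of them in N alone.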

How the data were processed

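RNA of 4T1 CSCsp was extracted with Trizol and read in 3 libraries, 1 per condition, grouped by their labels. The authors aligned reads with HISAT2 (2.2.0) and quantified RefSeq and assembled transcripts with StringTie (2.1.3 by the submitters' processing notes, 2.1.5 by the file headers), and deposited coverage, FPKM and TPM of each transcript. The build in those notes is mm9, yet the deposited positions overlap the GRCm38 gene of the same name for 99.3% of 23188 symbols and are given as GRCm38. FPKM was summed over the RefSeq transcripts of a symbol, which hold 76.4% of the total FPKM in N and 75.998% in P. Log2 ratios use a pseudocount of 0.1 and so understate differences of low genes. The rest lies on 12520 assembled transcripts, 9390 of them at loci with a symbol. The sum over the whole locus was added after the data were seen, since StringTie splits the reads of a locus between transcripts.

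From the ratio of coverage to FPKM the N-, P- and R-labelled libraries hold 5368241778, 5366295651 and 5753694559 aligned bases, or about 17894139, 17887652 and 19178982 fragments at 300 bases per read pair. Intervals are exact Poisson intervals for levels and exact Clopper-Pearson intervals for ratios, at 95%. Since genes that every cell uses were listed at 0 in some libraries, no fold is given against a value listed at 0. No test between conditions was possible with 1 library each. The members, the 46 lists of genes and the rule for naming genes were chosen with earlier results of these data known. That rule takes the 12 highest and 12 lowest log2 ratios with an FPKM of at least 5, without predicted genes, microRNAs and small nucleolar RNAs, and of each list up to 4 members furthest apart and the highest one. Of these the text gives examples picked after their values were seen, and genes outside the rule were picked likewise. A few genes chosen by it are left out of the text and not reported here. The list of 26 mitochondrially encoded genes had no member in the files. Alternatives were TPM, pseudocounts of 1 and 0.01, centring on the median gene, a filter of 5 FPKM or none, the transcript with the highest mean, assembled transcripts added to the only symbol of their locus, unshared loci, and leaving out leukocyte markers. The calls by the RefSeq sum and the ratio intervals were tested on simulated fragments. That simulation held no splitting of reads among transcripts and did not cover the calls by both sums. Promoters came from RefSeq (GRCm38.p6). Scripts ran in Python 3.11.15 (SciPy 1.17.1, pandas 2.3.3, NumPy 2.4.6, Matplotlib 3.10.9).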

Additional observations from a re-analysis of the deposited data

Results flagged for a closer look

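Transcripts that StringTie assembled at loci without a gene symbol were outside the comparison and held differences of the same kind. Of 2779 such loci with an FPKM of at least 1 in the N- or P-labelled library, 59 were at least 2-fold higher in the P-labelled library (2.12%) and 105 at least 2-fold lower (3.78%).

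Immunoglobulin transcripts were among the lower ones. The locus at chr6:70518240-70726961 (GRCm38), where the assembled exons overlap those of the immunoglobulin kappa constant gene Igkc with 4 variable and 3 joining genes, had an FPKM of 7.14 in the N-labelled library from about 111 fragments, was listed at 0 in the P-labelled library, and had 15.4 in the R-labelled library from 276. The locus at chr12:113420742-113429515, whose assembled exons overlap the mu constant gene Ighm and 3 joining genes, had 7.12 in N from about 196 fragments, 0.032 in P from 1, and 14.2 in R from 422. These are transcripts of B cells and plasma cells, and they stood in the library labelled as cultured without splenocytes and not in the one labelled as primed co-culture. Transcripts over T cell receptor genes were not among the assembled loci without a symbol.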

How the results depend on the processing

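No paired analysis was possible because each condition has 1 library. The counts of 279 genes higher and 361 lower moved by over 1.5 times to 524 and 575 with TPM, 156 and 228 with a pseudocount of 1, 664 and 893 without a filter, 88 and 123 with a filter of 5 FPKM, 85 and 204 with assembled transcripts added, and 34 and 165 with the locus sum (31 and 138 in unshared loci), which was added after the data were seen. Other filters change how many genes are tested. The median log2 ratio of all genes was 0.021, and 0.069 with TPM, 6.2e-05 after centring, 0 without a filter, 0.0093 with a filter of 5, 0.032 with assembled transcripts added, and 0.033 and 0.034 with the locus sum and in unshared loci. Both leukocyte medians stayed below 0 but varied widely. The neutrophil granule and surface genes median log2 ratio of -3.61 ran from -4.34 with a pseudocount of 0.01 to -0.41 with a filter of 5 FPKM, and was -1.30 with a pseudocount of 1 and -1.05 without a filter. The pan-leukocyte markers median log2 ratio of -0.56, over 7 genes, ran from -2.40 with TPM to -0.22 with a filter of 5 FPKM, and was -1.61 without a filter and -1.27 in unshared loci.

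Single genes turned direction only where assembled transcripts were counted. With these added, and equally with the locus sum in all and in unshared loci, the log2 ratios became -0.045 for Bloc1s3, 0.26 for Dhcr7, 0.068 for Dmap1, -0.079 for Kif5b, -0.053 for Prmt3 and -0.023 for Rbp2. With the locus sum they also became -0.016 for H2-D1 and H2-L, 0.017 for Nlrc5, 0.15 for Rpl17 and 0.16 for Srp54c, all at shared loci, and the platelet median became 0.12, over members that pass the filter by that sum. Of 195 named genes 127 stayed within the counting interval of their ratio under the locus sum, 57 moved and 11 turned. The other settings turned no named gene that was 2-fold apart. Low genes rest on few fragments: of the 126 lower genes 107 and of the 26 higher genes 19 had an interval on the ratio that leaves out 1.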

Other observations

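Transcripts known from fat tissue were higher in both libraries labelled as co-cultures than in the N-labelled library. After Fabp4, Gpd1, Ucp1 and Cox8b had been seen, 18 adipocyte genes were listed, so the list describes these libraries and gives no independent support. Of the 18, 16 had a higher FPKM in the P-labelled library than in the N-labelled library, and the same number were higher in R than in N. Cox7a1 alone was lower in P, at 2.25 and 1.23, and Lep was listed at 0 in each library. In the N-labelled library 8 of the 18 were listed at 0. Most members lay below an FPKM of 1 and rest on few fragments. Adipoq, which encodes the fat cell hormone adiponectin, was listed at 0 in N, at 0.26 in P from 6 fragments and at 0.25 in R from 6. Cfd, which encodes adipsin, was at 0.0053, 0.90 and 0.82, Cidec, a lipid droplet protein, was listed at 0 in N and at 0.34 and 0.38 in P and R from 11 and 13 fragments, and Car3, a carbonic anhydrase abundant in fat and muscle, was at 0.076, 0.96 and 0.67. Lipe, the hormone-sensitive lipase, is counted among the 16 in P and in R but hardly differed, at 10.1, 10.7 and 10.1. Adipocyte genes thus separated the N-labelled library from the P- and R-labelled libraries. Immunoglobulin transcripts and 7 of the 8 lower neutrophil genes were higher in N and R than in P, the latter on RefSeq transcripts. The other neutrophil gene, S100a9, was at 5.74, 0 and 2.03 in N, P and R over the locus. The source of the adipocyte transcripts and that of the leukocyte transcripts were not tested.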
